A study of Homo sapiens with 6 samples.

Results

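Nuclear genes whose symbols name subunits of the respiratory chain were followed in 21NT cells, a human breast cancer line used as a model of ductal carcinoma in situ. Genes were taken by symbol: those that begin with NDUFA, NDUFB, NDUFC, NDUFS, NDUFV, UQCR, COX4 to COX8 or ATP5, together with SDHA, SDHB, SDHC, SDHD and CYC1. The rule found 100 of the 20824 genes with a value. Of these, 80 encode subunits of complexes I to V, and the other 20 share a symbol with them (assembly factors, antisense genes, readthrough names, copies and a few proteins outside the complexes).

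The 3 lines were 21NT cells stably transfected with the pcDNA3.1 vector alone (EV), with TBX3iso1 or with TBX3iso2, the 2 splice isoforms of the T-box transcription factor TBX3, and each was sequenced as 2 libraries of mRNA. All 3 lines carried the vector backbone and were kept in G418. There was 1 transfected line per construct, so a construct and its line cannot be told apart. The sources do not say whether the libraries of a line came from separate cultures, so p-values measure the spread between these libraries, which may be technical. The comparisons ask which transcripts differ when either isoform is overexpressed.

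The respiratory chain sits in the inner mitochondrial membrane. Complex I takes electrons from NADH, complex II takes them from succinate within the citric acid cycle, complex III passes them from ubiquinol to cytochrome c, and complex IV passes them to oxygen. Complexes I, III and IV pump protons, and complex V, the ATP synthase, uses the gradient to make ATP. A small set of core proteins of these complexes is encoded by mitochondrial DNA and was not analysed here. The remaining subunits are nuclear genes that are expressed in nearly every cell, with tissue-restricted or stress-linked alternatives for a few subunits of complexes IV and V.

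Libraries held between 43176600 and 54512400 alignments. TBX3 itself was at 8.52 and 8.24 RPKM (reads scaled by transcript length and by the mapped reads of the library) in EV, at 13.1 and 11.4 in TBX3iso1 and at 17.5 and 15.5 in TBX3iso2, in the order of the labels. Epithelial keratins KRT8 and KRT18 had means of 656 and 654 RPKM over the 6 libraries, and 8 of 9 epithelial markers had a mean of at least 0.5 RPKM. That level was reached by 1 of 8 fibroblast markers (COL1A1), 1 of 6 endothelial markers (PECAM1), 2 of 8 blood cell markers (CD14 and HBA1) and 0 of 3 adipocyte markers. The summed epithelial markers lay between 2870 and 2966 RPKM in EV, between 2407 and 2666 in TBX3iso1 and between 2806 and 3183 in TBX3iso2. In the fit described below, 1 of 8 epithelial markers rose and 3 fell in each isoform line. Of all genes tested, 19% and 22.9% rose and 25.7% and 22.7% fell. The summed fibroblast markers lay between 4.73 and 5.01 RPKM in EV, between 8.19 and 8.84 in TBX3iso1 and between 7.20 and 7.62 in TBX3iso2, and COL1A1 rose by 0.77 and 0.70 on the log2 scale. The summed endothelial markers lay between 7.54 and 7.90 RPKM in EV and between 1.28 and 1.47 in the isoform lines, and the summed blood cell markers between 10.5 and 12.2 in EV and between 2.86 and 3.78 in the isoform lines. PECAM1, the only endothelial marker tested, was called lower in both isoform lines, with log2 differences of -2.56 and -2.41. Of the 2 blood cell markers tested, 1 was called lower in each isoform line. Other markers of these lists, CDH5, VWF, ERG, PTPRC and CD3E, stayed below 0.1 RPKM in all 6 libraries. In bulk RNA, fewer cells of a type and less RNA per cell cannot be told apart, and the part of these markers in the differences below was not tested.

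Subunit transcripts were abundant. The 80 subunits together made up between 2.25% and 2.54% of all RPKM in a library, and their median was between 68.9 and 88.5 RPKM. The highest subunit of complex V, and of all 5 complexes, was ATP5B, the catalytic beta subunit, with a mean of 557 RPKM over the 6 libraries. COX8A led complex IV at 324 RPKM, NDUFB9 led complex I at 239, CYC1, the cytochrome c1 of complex III, led its complex at 135 and SDHB, an iron-sulphur protein, led complex II at 77.1. The lowest members were NDUFA5 in complex I (2.97 RPKM), SDHD in complex II (24.6), UQCRB in complex III (17.9 to 21.7), COX8C in complex IV (0.0221) and ATP5G3 in complex V (47.0). NDUFA5 is listed per kilobase, and its representative transcript is 5496 bases long.

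Nuclear respiratory genes are known for shared promoter motifs, so the 250 bases before and 50 bases after each annotated start (RefSeq, GRCh38.p14) were searched on both strands. Of the 80 subunits, 67 had a promoter in that table. The NRF1 core GCGCATGC was found in 14 of them (20.9%), against 3.68% of 27305 genes with a promoter. The ETS core CCGGAAG, bound by GABPA among others, was found in 20 (29.9%, against 12.2%), and the YY1 core AAGATGGCG in 9 (13.4%, against 2.14%). The T-box site GGTGTGA was found in 0 of 67, against 4.2% of all genes. Only these exact letters were searched, and the T-box element that the study reports in SNAI2 differs from them. Other T-box sites within these windows, and binding within or outside them, were therefore not tested. The study's TBX3 binding arrays were not used here. The hypoxia core ACGTG, which was added after the values had been seen, was found in 17 (25.4%, against 24.9%). It was absent from the 2 windows of NDUFA4L2 and from the window of NDUFA4, and sequence outside these windows was not searched.

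Below are the 250 bases before the start of an isoform pair that diverged (COX6B1 and COX6B2), of a subunit that was higher in both isoform lines (NDUFB3) and of one that differed between them (NDUFS6). Capitals mark a match to a searched motif, which was the ETS core on the opposite strand in COX6B1 and the NRF1 core in NDUFS6. The sequences run 5′ to 3′ on the strand of the gene, at chr19:35648073-35648322 (plus), chr19:55354720-55354969 (minus), chr2:201071751-201072000 (plus) and chr5:1801157-1801406 (plus) of GRCh38.p14.
COX6B1: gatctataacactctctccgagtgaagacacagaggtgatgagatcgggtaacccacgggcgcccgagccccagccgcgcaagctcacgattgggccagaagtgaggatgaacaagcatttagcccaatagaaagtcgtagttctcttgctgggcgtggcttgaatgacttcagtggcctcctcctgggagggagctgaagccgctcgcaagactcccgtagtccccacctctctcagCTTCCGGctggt
COX6B2: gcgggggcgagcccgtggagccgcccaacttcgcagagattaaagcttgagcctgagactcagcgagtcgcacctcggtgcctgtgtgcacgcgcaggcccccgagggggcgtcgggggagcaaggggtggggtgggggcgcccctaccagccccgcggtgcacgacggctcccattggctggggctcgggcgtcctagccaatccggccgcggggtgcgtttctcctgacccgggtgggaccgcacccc
NDUFB3: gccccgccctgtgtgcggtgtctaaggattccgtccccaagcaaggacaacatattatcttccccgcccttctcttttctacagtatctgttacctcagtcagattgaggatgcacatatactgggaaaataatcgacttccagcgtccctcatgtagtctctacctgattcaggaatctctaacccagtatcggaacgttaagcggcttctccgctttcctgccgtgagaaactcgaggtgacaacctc
NDUFS6: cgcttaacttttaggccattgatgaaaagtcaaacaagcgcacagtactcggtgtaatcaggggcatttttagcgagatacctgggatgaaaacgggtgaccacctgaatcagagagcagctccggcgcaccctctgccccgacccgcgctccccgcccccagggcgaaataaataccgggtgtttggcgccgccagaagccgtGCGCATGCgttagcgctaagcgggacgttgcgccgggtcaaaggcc

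Most subunits differed little between the lines, and the differences that passed the test were mainly small rises. A gene was tested when its mean was at least 0.5 RPKM, which 97 of the 100 genes and 79 of the 80 subunits reached (COX8C, NDUFAF4P1 and NDUFV2-AS1 did not). With limma on log2(RPKM + 0.1) and a Benjamini-Hochberg adjusted p under 0.05, 16 of 97 rose and 7 fell in TBX3iso1 against EV, where 19% of all genes tested rose and 25.7% fell. In TBX3iso2 against EV, 20 rose and 5 fell, where 22.9% of all genes rose and 22.7% fell. The share that rose was thus close to that of all genes in both lines, and the share that fell (7.22% and 5.15%) was below it, which is a description and was not tested. Among the genes that fell, NDUFC2-KCTD14 (TBX3iso1) and NDUFA6-AS1 (both lines) reached the minimum of 0.5 RPKM only through EV. A difference that missed the threshold is not shown to be absent. A fold change over 1.5 as well was reached by 11 genes in TBX3iso1 (21.5% of all genes) and by 8 in TBX3iso2 (21.2% of all genes). NDUFC2-KCTD14 in TBX3iso1 and NDUFA6-AS1 in both lines count in these totals. They also count among the named genes that passed in the closing section on processing.

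The median log2 difference from EV over the 97 genes was 0.12 in TBX3iso1 and 0.15 in TBX3iso2, against -0.05 and -0.002 over all 12805 genes tested. By complex, the medians in TBX3iso1 were 0.15 for complex I, -0.01 for complex II, 0.12 for complex III, 0.02 for complex IV and 0.07 for complex V. In TBX3iso2 they were 0.18, 0.11, 0.16, 0.08 and 0.21 in the same order. Both isoforms were compared with the same EV libraries.

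The medians over all the genes, 0.12 and 0.15, were smaller than the difference between the libraries of an isoform line. In TBX3iso1, library 2 was above library 1 for 77 of 79 subunits, with a median log2 difference of 0.24, and in TBX3iso2 for 75 of 79, also with a median of 0.24. In EV the median was 0.03, and library 2 was the higher for 49 of 79. The exceptions in TBX3iso1 were NDUFS1 and NDUFA4L2, and in TBX3iso2 NDUFS1, NDUFS4, COX6B2 and NDUFA4L2. As the plot of library medians shows, the medians of library 1 of TBX3iso1 lay between -0.10 (complex IV) and 0.03 (complex I), and those of its library 2 between 0.03 (complex II) and 0.27. In TBX3iso2, library 1 lay between -0.06 (complex IV) and 0.10 (complex V) and library 2 between 0.22 (complex II) and 0.31 (complex III). For complex V in TBX3iso2, both libraries (0.10 and 0.27) lay above the EV libraries (-0.02 and 0.02).

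**Figure D1:**
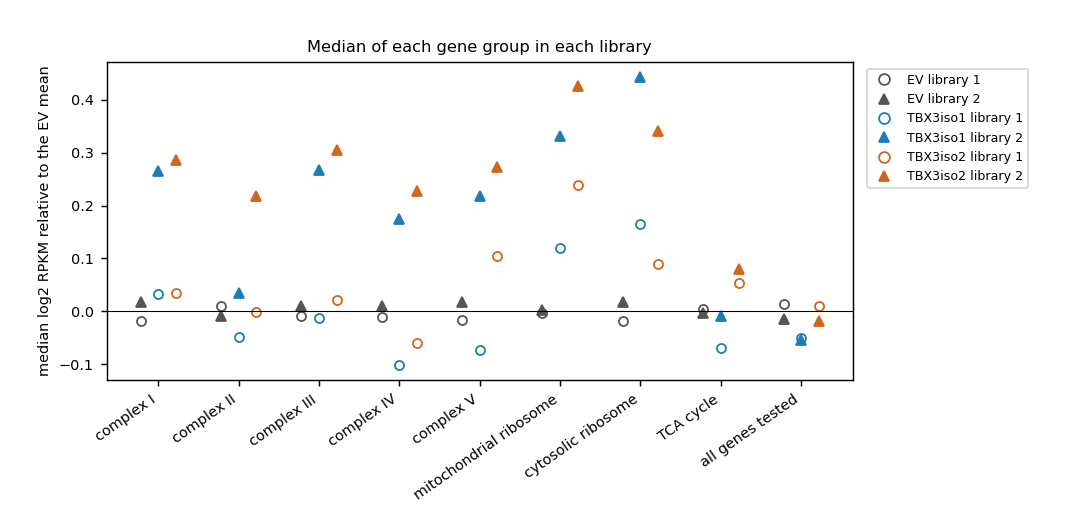
Median log2 RPKM relative to the EV mean (y axis) of the subunits of each complex, of 3 comparison groups and of all genes tested, in each library (circles: library 1, triangles: library 2). For complex I, library 2 of the isoform lines sits at 0.27 and 0.29 and library 1 at 0.03 in both, while the EV libraries sit at -0.02 and 0.02.

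Without library 2 of TBX3iso1, the median over the 97 genes was -0.01. Without library 1 of that line it was 0.23. For TBX3iso2 the median was 0.03 without its library 2 and 0.26 without its library 1. Such a fit leaves 1 library in a line, so the numbers of genes called in it are not given.

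The shift between libraries was shared by other short transcripts. Subunit transcripts had a median length of 783.5 bases, against 3155 over all genes tested. Among genes outside the set, library 2 minus library 1 had a median of 0.23 in TBX3iso1 and 0.24 in TBX3iso2 for transcripts shorter than 750 bases, and of -0.17 and -0.26 for those of 6000 bases and over. In EV these medians were 0.01 and -0.05. Genes of the cytosolic ribosome (0.29 and 0.25) and of the mitochondrial ribosome (0.23 and 0.20) moved likewise between libraries, and citric acid cycle genes less (0.06 and 0.08). The 10 subunits whose representative transcript was 3000 bases or longer also had medians of 0.20 and 0.18. A correction of each library for transcript length, added after the values had been seen, lowered the medians to 0.06 in TBX3iso1 and 0.09 in TBX3iso2. It gave 28 higher and 12 lower in TBX3iso1 and 30 higher and 9 lower in TBX3iso2. The share of all genes called under that correction was not computed.

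**Figure D2:**
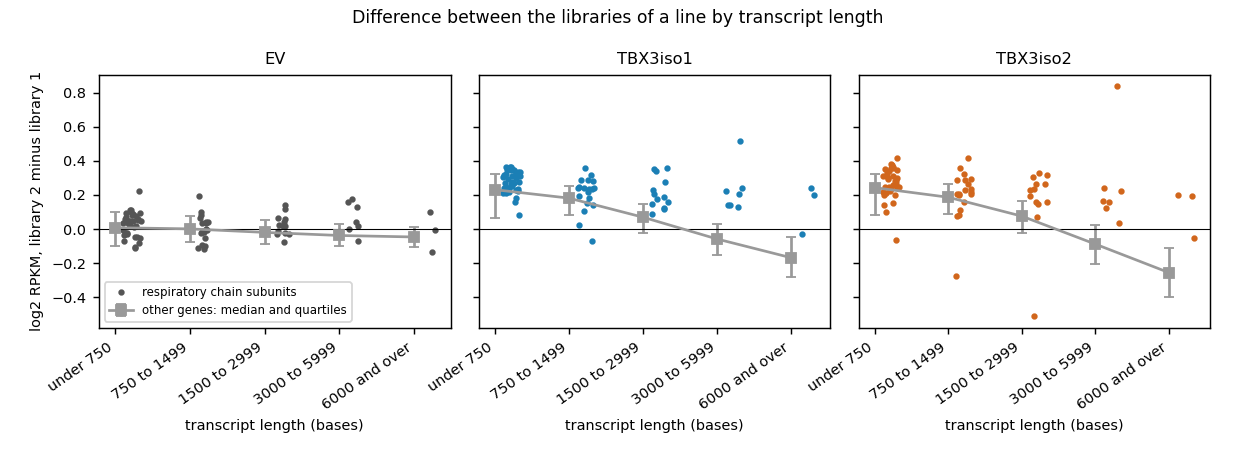
Library 2 minus library 1 of each line (log2 RPKM, y axis) by transcript length class (x axis) for respiratory chain subunits (points, spread sideways for legibility) and all other genes tested (squares: median, bars: quartiles). In TBX3iso1 and TBX3iso2 the medians fall from 0.23 and 0.24 in the shortest class to -0.17 and -0.26 in the longest, and the subunits have a median of 0.24 in both lines.

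Complex I held 37 subunits, 7 of them core subunits, which carry the flavin, the iron-sulphur clusters or the quinone site, and 30 accessory. In TBX3iso1, 7 rose and 0 fell, and in TBX3iso2, 9 rose and 0 fell. The risen shares, 18.9% and 24.3%, were near the 19% and 22.9% of all genes tested. NDUFB3, an accessory subunit of the membrane arm, was at 35.5 and 38.5 RPKM in EV, at 55.6 and 66.0 in TBX3iso1 and at 53.6 and 64.3 in TBX3iso2. All 4 isoform libraries lay above both EV libraries, and the log2 difference was 0.71 ± 0.12 (SE, limma adjusted p = 0.0024) in TBX3iso1 and 0.67 ± 0.12 (adjusted p = 0.0031) in TBX3iso2. NDUFA9, an accessory subunit at the foot of the peripheral arm, was at 36.4 and 36.3 RPKM in EV, at 51.6 and 59.2 in TBX3iso1 and at 40.9 and 46.8 in TBX3iso2. It rose by 0.60 ± 0.10 in TBX3iso1 (adjusted p = 0.0020), while the 0.27 of TBX3iso2 had an adjusted p of 0.055 and passed under 7 of 17 alternatives.

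NDUFS1, the largest core subunit, stood apart from the shift between libraries. Its representative transcript has 11660 bases. In the isoform lines its library 2 minus library 1 was -0.03 and -0.05, against medians of -0.17 and -0.26 for other genes of 6000 bases and over. NDUFS1 was at 26.1 and 23.7 RPKM in EV, at 28.3 and 27.7 in TBX3iso1 and at 37.5 and 36.1 in TBX3iso2. It rose in TBX3iso2 against EV (0.57 ± 0.08, limma adjusted p = 0.00086) and against TBX3iso1 (0.40, adjusted p = 0.014). Its 0.17 in TBX3iso1 against EV did not pass (adjusted p = 0.10), but did with median-ratio scaling, a replicate block and the length and GC corrections. NDUFV1, which binds NADH, had log2 differences of -0.04 and -0.18 (adjusted p = 0.78 and 0.24), and NDUFS3 of 0.09 and 0.28 (adjusted p = 0.52 and 0.062). NDUFB9, the most abundant, was at 185 and 194 RPKM in EV, at 231 and 275 in TBX3iso1 and at 251 and 298 in TBX3iso2, and rose by 0.41 and 0.53. Without library 1 or library 2 of EV, NDUFB9 passed in neither line, at 0.38 to 0.57 and adjusted p from 0.068 to 0.18, and the rise of NDUFS1 over TBX3iso1 (0.41 and 0.38) had an adjusted p of 0.051 without library 1 of TBX3iso1 and of 0.061 without its library 2. Without library 2 of TBX3iso1, NDUFB9 (0.28) was not called in that line.

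NDUFS6, an accessory subunit that binds zinc, took opposite signs in the isoform lines. It was at 111 and 114 RPKM in EV, at 125 and 156 in TBX3iso1 and at 80.1 and 103 in TBX3iso2. Neither difference from EV passed the test (0.32 and -0.31), although both did with a replicate block (adjusted p = 0.015 and 0.017) and under 7 and 4 of the 17 alternatives in all, and TBX3iso2 was lower than TBX3iso1 by a log2 difference of -0.63 ± 0.14 (adjusted p = 0.026). That call was lost under 6 of 17 alternatives, among them leaving out either EV library (-0.63 in both), library 2 of TBX3iso1 (-0.47) or library 1 of TBX3iso2 (-0.45), with adjusted p from 0.062 to 0.090. NDUFV3 was at 14.97 RPKM in both EV libraries, at 15.1 and 16.6 in TBX3iso1 and at 18.7 and 20.4 in TBX3iso2, and rose in TBX3iso2 by 0.38 (adjusted p = 0.0080), with 0.062 and 0.063 without library 1 or 2 of EV.

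**Figure D3:**
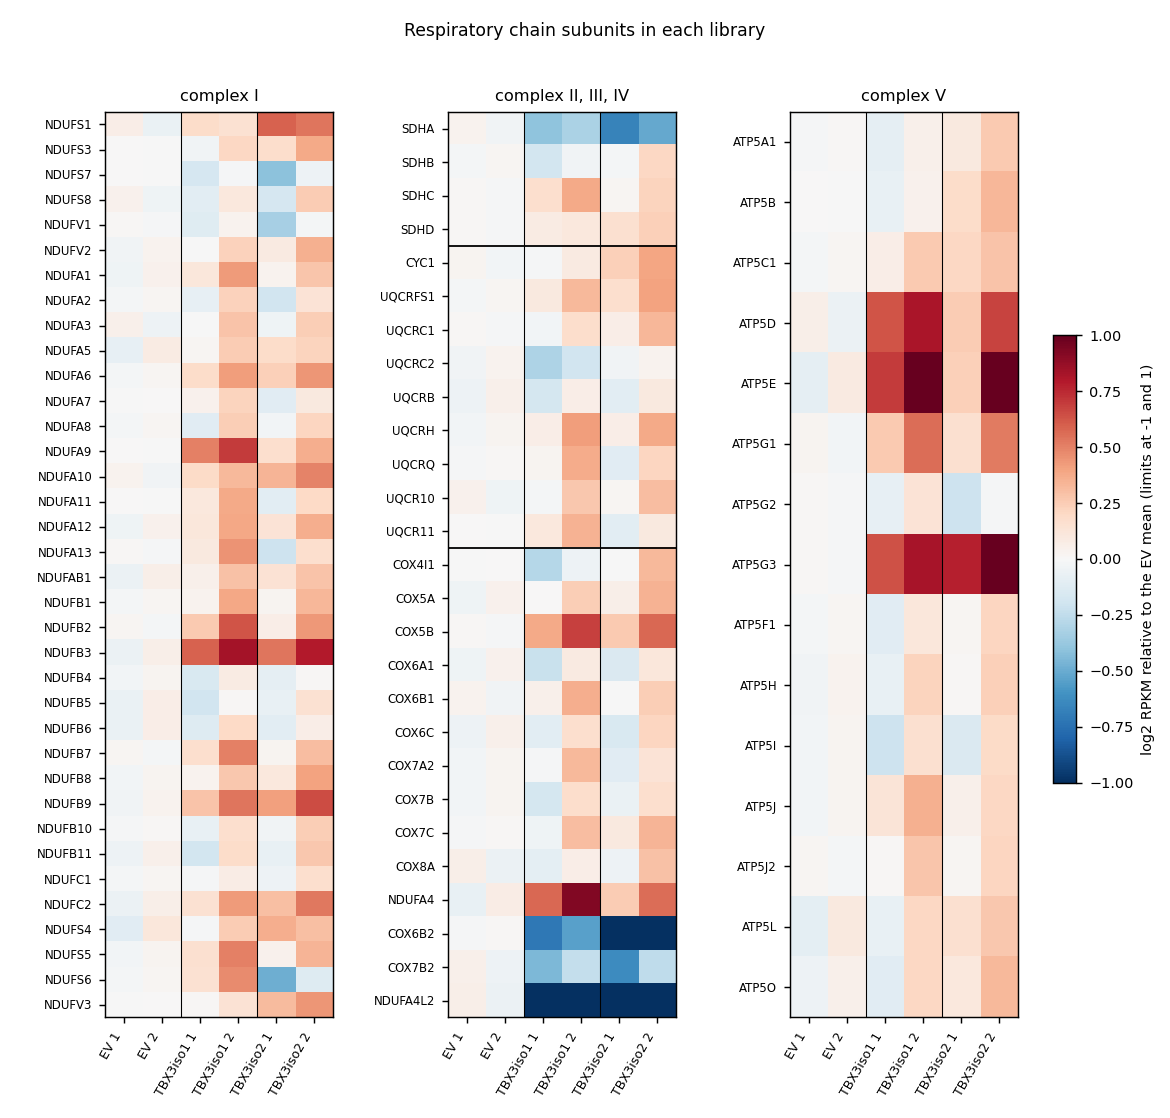
Log2 RPKM relative to the EV mean of 78 of the 79 subunits tested (rows, by complex) in the 6 libraries (columns). Colours are limited to -1 and 1. Library 2 of either isoform line is redder than library 1 in nearly every row, and NDUFB3, ATP5G3, NDUFA4, SDHA, COX6B2 and NDUFA4L2 keep one colour in all 4 isoform libraries.

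In complex II, 1 of 4 subunits fell in both lines, where 25.7% and 22.7% of all genes tested fell. SDHA, the flavoprotein that oxidizes succinate, was at 73.6 and 70.0 RPKM in EV, at 54.2 and 57.7 in TBX3iso1 and at 45.1 and 50.3 in TBX3iso2. It fell in both lines, with log2 differences of -0.36 ± 0.08 (limma adjusted p = 0.010) in TBX3iso1 and -0.59 ± 0.08 (adjusted p = 0.0011) in TBX3iso2, which was just past the fold threshold of 1.5. Without library 1 of EV the TBX3iso1 difference was -0.32 (adjusted p = 0.096) and without library 2 of EV -0.40 (adjusted p = 0.057). SDHA has near-identical copies in the genome, and a read could be kept at up to 10 places, so its level is uncertain. The copies SDHAP1 (5.18, 4.24 and 4.14 RPKM on average in EV, TBX3iso1 and TBX3iso2), SDHAP2 (5.62, 5.46 and 4.71) and SDHAP3 (1.66, 0.940 and 0.922) were listed at much lower levels.

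None of SDHB, SDHC and SDHD passed as lower in the main fit. The iron-sulphur protein SDHB was at 76.0 and 78.2 RPKM in EV, at 68.0 and 75.1 in TBX3iso1 and at 75.9 and 89.2 in TBX3iso2. It passed in neither line in that fit (-0.11 and 0.09). With quantile normalization or the length correction, SDHB passed as lower in TBX3iso1. The membrane anchor SDHC had log2 differences of 0.27 (adjusted p = 0.058, under 0.05 in 9 of 17 alternatives) and 0.12 (adjusted p = 0.35, under 0.05 in 0 of 17). The anchor SDHD rose in TBX3iso2 by 0.20 (adjusted p = 0.045), a call lost under 10 of the 17 alternatives, 5 of them without a library (library 1 or 2 of EV or of TBX3iso1, or library 2 of TBX3iso2, 0.16 to 0.21), and was at 0.09 in TBX3iso1.

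Few complex III subunits passed. Of the 9 subunits, 0 rose and 1 fell in TBX3iso1 and 1 rose and 0 fell in TBX3iso2, at background shares of 19% and 25.7% and of 22.9% and 22.7%. CYC1 was at 126 and 122 RPKM in EV, at 123 and 132 in TBX3iso1 and at 146 and 163 in TBX3iso2, and rose in TBX3iso2 by 0.32 ± 0.09 (limma adjusted p = 0.022), a call lost without library 1 of EV (0.34), library 2 of EV (0.29) or library 2 of TBX3iso2 (0.24). UQCRC2, a core protein, was at 99.0 and 103 RPKM in EV, at 81.5 and 88.8 in TBX3iso1 and at 98.8 and 104 in TBX3iso2, and fell in TBX3iso1 by 0.25 on the log2 scale (adjusted p = 0.037), a call lost under 7 of 17 alternatives, among them leaving out library 1 of EV (-0.28), library 2 of EV (-0.22) or library 1 of TBX3iso1 (-0.19). The Rieske iron-sulphur protein UQCRFS1 (0.21 and 0.28) and the core protein UQCRC1 (0.07 and 0.20) did not pass. UQCRH and UQCRB each share sequence with a copy listed on its own (UQCRHL and UQCRBP1), and their levels are uncertain.

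Complex IV contained the largest changes of the set, the falls of NDUFA4L2 in both lines and of COX6B2 in TBX3iso2. Both are alternative subunit genes at low level. NDUFA4, once assigned to complex I and now known as a complex IV subunit, was at 22.4 and 24.8 RPKM in EV, at 35.1 and 44.9 in TBX3iso1 and at 28.1 and 34.7 in TBX3iso2. It rose by 0.75 ± 0.14 (limma adjusted p = 0.0043) in TBX3iso1 and by 0.40 ± 0.14 (adjusted p = 0.048) in TBX3iso2. The TBX3iso2 call was lost under 6 of the 17 alternatives, among them leaving out library 1 of EV (0.33), library 2 of EV (0.47) or library 2 of TBX3iso2 (0.25).

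NDUFA4L2, its hypoxia-inducible paralogue, moved the other way and in steps. It was at 8.58 and 7.89 RPKM in EV, at 3.26 and 3.10 in TBX3iso1 and at 0.819 and 0.660 in TBX3iso2, with no overlap between any of the lines. The log2 difference was -1.35 ± 0.13 (2.54-fold lower, adjusted p = 0.00018) in TBX3iso1 and -3.32 ± 0.13 (9.97-fold lower, adjusted p = 4.6e-06) in TBX3iso2, and -1.97 (adjusted p = 0.00018) between TBX3iso2 and TBX3iso1. Within a library, NDUFA4L2 stood at 38.2% and 31.9% of NDUFA4 in EV, at 9.29% and 6.90% in TBX3iso1 and at 2.91% and 1.90% in TBX3iso2. The gene lies on the minus strand of chromosome 12 (GRCh37, chr12:57628686-57634498) and overlaps SHMT2 on the other strand. Whether the counting used strand is not given in the sources used here, so reads of the overlap cannot be told apart.

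COX6B2, the testis-type form of subunit VIb, also fell in both lines. It was at 2.34 and 2.38 RPKM in EV, at 1.40 and 1.59 in TBX3iso1 and at 0.366 and 0.227 in TBX3iso2. The log2 difference was -0.63 ± 0.19 (limma adjusted p = 0.031) in TBX3iso1 and -2.66 ± 0.19 (6.30-fold lower, adjusted p = 5.6e-05) in TBX3iso2, with -2.03 (adjusted p = 0.00092) between TBX3iso2 and TBX3iso1. From RPKM, length and alignments, its TBX3iso2 values stand for about 29 and 15 reads. The TBX3iso1 call was lost under 7 of 16 alternatives, among them leaving out library 1 of EV (-0.64), library 2 of EV (-0.61), library 1 of TBX3iso1 (-0.54) or library 2 of TBX3iso1 (-0.71). COX6B1, the ubiquitous form, was at 151 and 144 RPKM in EV, at 153 and 190 in TBX3iso1 and at 147 and 175 in TBX3iso2 and passed neither test (0.21 and 0.12).

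COX7B2, another restricted form, was at 6.04 and 5.60 RPKM in EV, at 4.24 and 4.92 in TBX3iso1 and at 3.72 and 4.86 in TBX3iso2, and fell in TBX3iso2 by 0.44 (adjusted p = 0.037), a call lost under 7 of 17 alternatives, among them leaving out library 1 of EV (-0.39), library 2 of EV (-0.50) or library 1 of TBX3iso2 (-0.25). Its ubiquitous partner COX7B had log2 differences of 0.00 and 0.05. COX8C was listed at 0 in 4 libraries and below 0.1 RPKM in the other 2, which is at most about 3 reads. COX4I2, COX6A2 and COX7A1 were not analysed here.

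Of the 11 ubiquitous complex IV subunits, 2 rose in each isoform line, NDUFA4 and COX5B, where 19% and 22.9% of all genes tested rose. COX5B was at 152 and 150.0 RPKM in EV, at 197 and 243 in TBX3iso1 and at 181 and 225 in TBX3iso2, with log2 differences of 0.53 and 0.42. Its calls were lost without library 1 of EV (0.54 and 0.43), without library 2 of EV (0.52 and 0.41) and without library 2 of the isoform line compared (0.38 and 0.26). COX4I1 (-0.17 and 0.16), COX6A1 (-0.06 and -0.01), COX7A2 (0.16 and 0.01) and COX8A (-0.02 and 0.12) did not pass.

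**Figure D4:**
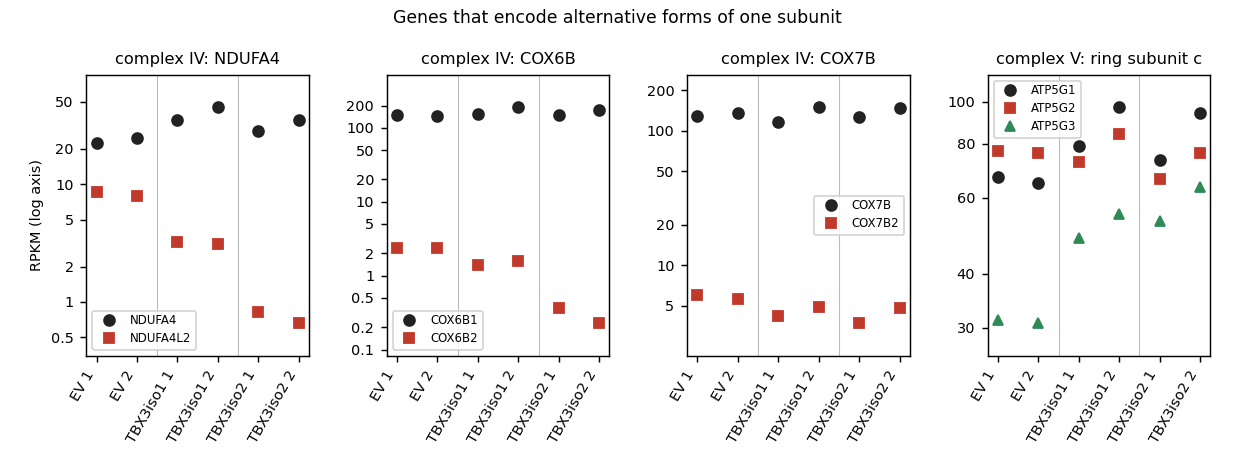
RPKM (log axis) in each library of genes that encode alternative forms of a subunit. NDUFA4L2 steps down from 8.58 in EV to 0.660 in TBX3iso2 while NDUFA4 lies higher in all 4 isoform libraries than in EV, COX6B2 steps down from 2.38 to 0.227 at a level of COX6B1 that overlaps between lines, and ATP5G3 is higher in all 4 isoform libraries.

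In complex V, 4 of 15 subunits rose in TBX3iso1 and 2 in TBX3iso2, and 0 fell in either, where 19% and 22.9% of all genes tested rose and 25.7% and 22.7% fell. ATP5G1, ATP5G2 and ATP5G3 encode the same mature ring subunit c of the proton channel. ATP5G3 was at 31.2 and 30.7 RPKM in EV, at 48.3 and 55.0 in TBX3iso1 and at 53.0 and 63.6 in TBX3iso2. It rose by 0.73 ± 0.11 (limma adjusted p = 0.0013) and 0.91 ± 0.11 (1.87-fold, adjusted p = 0.00046). ATP5G1 was at 67.1 and 64.8 RPKM in EV, at 78.9 and 97.2 in TBX3iso1 and at 73.5 and 94.4 in TBX3iso2, with 0.41 (adjusted p = 0.045) and 0.34 (adjusted p = 0.082). ATP5G2 had log2 differences of 0.03 and -0.11 and passed neither test.

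The make-up of the 3 ring genes differed by line. ATP5G3 gave 17.8% and 17.9% of their summed RPKM in EV, 24.2% and 23.3% in TBX3iso1 and 27.5% and 27.2% in TBX3iso2. ATP5G2 gave 43.98% and 44.3% in EV, 36.3% and 35.6% in TBX3iso1 and 34.3% and 32.5% in TBX3iso2. These shares barely differed between the libraries of a line, unlike the levels themselves. Their sum was 175 and 171 RPKM in EV, 200 and 236 in TBX3iso1 and 193 and 234 in TBX3iso2.

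The remaining rises in complex V were of F1 subunits of the central stalk. ATP5D, the delta subunit, was at 69.1 and 63.9 RPKM in EV, at 103 and 117 in TBX3iso1 and at 79.3 and 106 in TBX3iso2, and rose by 0.72 and 0.46. ATP5E, the epsilon subunit, was at 127 and 143 RPKM in EV, at 219 and 313 in TBX3iso1 and at 159 and 284 in TBX3iso2. Its 0.96 ± 0.27 in TBX3iso1 passed (limma adjusted p = 0.022) and its 0.66 in TBX3iso2 did not (adjusted p = 0.080), and its libraries differed by 0.52 and 0.84 on the log2 scale within the isoform lines. The copy ATP5EP2 was listed at 203 and 198 RPKM in EV, at 217 and 270 in TBX3iso1 and at 223 and 266 in TBX3iso2, so the reads of the pair may be split between them. The catalytic subunits ATP5A1 (-0.02 and 0.18) and ATP5B (-0.01 and 0.26) did not pass. Calls of ATP5E and ATP5G1 in TBX3iso1 were lost without library 1 of EV (0.87 and 0.43), library 2 of EV (1.05 and 0.38) or library 2 of TBX3iso1 (0.70 and 0.26). Those of ATP5D were lost without library 2 of EV in TBX3iso1 (0.67, adjusted p = 0.052) and without library 1 of EV (0.52), library 2 of EV (0.41) or library 2 of TBX3iso2 (0.25) in TBX3iso2.

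**Figure D5:**
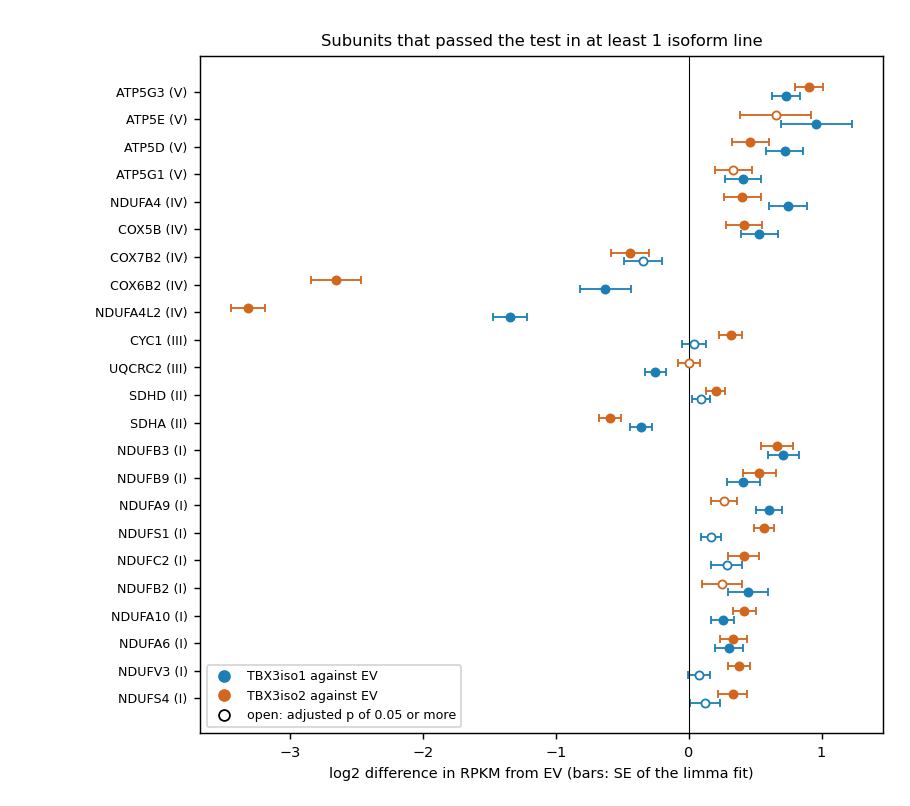
Log2 difference from EV (x axis, bars: SE) of 23 subunits that passed the limma test in at least 1 isoform line, with the complex in brackets (filled: adjusted p under 0.05). NDUFA4L2 at -1.35 and -3.32 and COX6B2 in TBX3iso2 at -2.66 lie far to the left, with COX6B2 in TBX3iso1 at -0.63. SDHA passed as lower in both lines and COX7B2 only in TBX3iso2 (-0.44, against -0.34 in TBX3iso1), and the rises end at 0.96 for ATP5E.

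Among the 18 tested genes that only share a symbol with the subunits, 7 are assembly factors. Of these, 3 rose in TBX3iso1 and 4 in TBX3iso2, and 0 fell. Of all genes tested, 19% and 22.9% rose and 25.7% and 22.7% fell. NDUFAF4 was at 7.998 and 8.64 RPKM in EV, at 11.9 and 14.6 in TBX3iso1 and at 11.8 and 13.8 in TBX3iso2, and rose by 0.66 and 0.61. NDUFAF6 was at 4.70 and 5.40 RPKM in EV, at 6.93 and 8.15 in TBX3iso1 and at 7.82 and 8.74 in TBX3iso2, and rose by 0.57 and 0.70. ATP5SL rose in TBX3iso2 against EV (0.33) and against TBX3iso1 (0.39). NDUFAF6 in TBX3iso1 was not called without library 1 of EV (0.47), ATP5SL against EV not without library 1 (0.34) or 2 (0.33) of EV, and ATP5SL against TBX3iso1 not without library 1 (0.40) or 2 (0.37) of TBX3iso1.

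The readthrough name NDUFC2-KCTD14 was at 0.792 and 0.689 RPKM in EV, at 0.305 and 0.252 in TBX3iso1 and at 0.624 and 0.367 in TBX3iso2. It shares its exons with NDUFC2 and KCTD14 and stood for at most about 23 reads. NDUFA6-AS1, antisense to NDUFA6 by name and overlapping CYP2D6 on the other strand, was at 0.968 and 0.985 RPKM in EV, at 0.561 and 0.365 in TBX3iso1 and at 0.484 and 0.368 in TBX3iso2. Both genes reached the minimum of 0.5 RPKM only through EV. Their calls as lower count in the totals above, and only their levels are given here, as a description.

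Between the isoforms, 3 of the 97 genes were higher in TBX3iso2 and 3 were lower, at background shares of 8.79% and 5.97%. The higher were NDUFS1, ATP5SL and NDUFV3, and the lower were COX6B2, NDUFA4L2 and NDUFS6. Only the latter 3 also passed 1.5-fold, a step that 6.29% of all genes tested passed. The median was 0.04, against 0.05 over all genes. NDUFV3 (0.30, adjusted p = 0.049) was lost under 13 of 17 alternatives, among them leaving out any library but library 1 of TBX3iso2 (0.23 to 0.37).

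Other mitochondrial gene lists are given by their counts, to be read beside the 19% of all genes tested that rose and 25.7% that fell in TBX3iso1 and the 22.9% and 22.7% in TBX3iso2. Of 79 mitochondrial ribosome genes chosen by symbol, 28 rose and 0 fell in TBX3iso1 (median 0.22), and 46 rose and 1 fell (the copy MRPS31P5, a call lost without library 2 of EV at -0.34 or library 1 or 2 of TBX3iso2 at -0.54 and -0.51) in TBX3iso2 (median 0.32). MRPS9 rose by 0.65 and 1.09 and MRPL30 by 0.80 and 0.92. Of 82 cytosolic ribosome genes, 19 rose in TBX3iso1 (median 0.32) and 8 in TBX3iso2 (median 0.21), and 0 fell. Of 44 further assembly factors, 8 rose and 7 fell in TBX3iso1 (median 0.06) and 9 rose and 5 fell in TBX3iso2 (median 0.15). BCS1L, which inserts the Rieske protein into complex III, was at 17.0 and 16.7 RPKM in EV, at 29.3 and 31.7 in TBX3iso1 and at 31.4 and 35.5 in TBX3iso2, and rose by 0.85 and 0.98. SDHAF4, an assembly factor of SDHA, fell in TBX3iso1 by 0.95 on the log2 scale (adjusted p = 0.0011) and in TBX3iso2 by 0.41 (adjusted p = 0.039), and was higher in TBX3iso2 than in TBX3iso1 (0.54, adjusted p = 0.034). The TBX3iso2 call was lost without library 1 of EV (-0.34), library 2 of EV (-0.47) or library 1 of TBX3iso2 (-0.29), and that between the isoforms without library 1 or 2 of EV (0.54 in both), library 1 of TBX3iso1 (0.39) or library 2 of TBX3iso2 (0.42).

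Of 13 genes of cytochrome c, electron-transfer flavoproteins and ubiquinone synthesis, 3 rose and 4 fell in TBX3iso1 (median -0.19), and 2 rose and 2 fell in TBX3iso2 (median 0.02). CYCS, cytochrome c, was at 50.97 and 53.4 RPKM in EV, at 79.5 and 93.7 in TBX3iso1 and at 93.6 and 105 in TBX3iso2, and rose by 0.72 and 0.93. PDSS1 and PDSS2 encode the subunits of the enzyme that makes the ubiquinone tail, and PDSS1 rose (0.34 and 0.71) while PDSS2 fell (-0.49 and -0.60). The TBX3iso1 call of PDSS1 was lost without library 1 of EV (0.32), library 2 of EV (0.35) or library 2 of TBX3iso1 (0.34).

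Of 18 citric acid cycle genes, 1 rose and 4 fell in TBX3iso1 (median -0.03) and 2 rose and 2 fell in TBX3iso2 (median 0.07). IDH2, the mitochondrial NADP-dependent isocitrate dehydrogenase, was at 158 and 154 RPKM in EV, at 72.7 and 76.8 in TBX3iso1 and at 83.2 and 91.4 in TBX3iso2, and fell by 1.06 and 0.84. Of 17 regulators of mitochondrial biogenesis, 5 rose and 2 fell in TBX3iso1 (median 0.08) and 6 rose and 2 fell in TBX3iso2 (median 0.10). PPRC1, a PGC-1 related coactivator, rose by 0.39 and 0.52, whereas HIF1A, the hypoxia-inducible factor subunit, fell (-0.84 and -0.52) and NRF1 had -0.07 and 0.10 and passed neither test. The TBX3iso1 call of PPRC1 was lost without library 1 of EV (0.43), library 2 of EV (0.34) or library 1 of TBX3iso1 (0.31), and its TBX3iso2 call without library 2 of EV (0.47). The TBX3iso2 call of HIF1A was lost without library 1 of EV (-0.54), library 2 of EV (-0.50) or library 2 of TBX3iso2 (-0.33).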

How the data were processed

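mRNA of 6 libraries (21NT EV, TBX3iso1 and TBX3iso2, 2 each) was measured. Per the labels and the study's methods, the authors prepared stranded libraries, sequenced paired reads of 51 bases, used TopHat for alignment to hg19, keeping up to 10 alignments per read, and Partek for RPKM, and the deposited RPKM values are linear. Versions, gene annotation and strand setting are not given in the sources used here. No gene counts were used, so counting error per gene is unknown.

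The 12805 of 20824 genes whose mean over the libraries reached 0.5 RPKM were tested in R 4.3.3 with limma 3.58.1 on log2(RPKM + 0.1), with 1 mean per line, a trend, and Benjamini-Hochberg adjustment over all of them. Fold changes are on that scale and understate the change of low genes. The fit was tested on simulated data.

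The 100 genes and 15 gene lists were chosen with earlier results of these data known. The text names the 3 largest rises and falls that passed in each comparison, genes past both thresholds, the highest and lowest member of each complex, catalytic or core subunits and isoform pairs. Of the other lists it names up to 3 passing genes with the largest differences. COX5B, UQCRC2, UQCRH, NDUFS4, NRF1, ATPIF1 and MRPS31P5 were named after their values were seen. NDUFA4 and NDUFA4L2 were placed in complex IV. Transcript length came from the GENCODE annotation of GRCh37, for the 96.3% of genes tested that matched it. Alternatives were other pseudocounts, filters, scalings and fits, a replicate block, leaving out each library, and corrections for length and GC content. A gene of the set that counts in the totals is not reported here by name or drawn. The 13 subunits encoded by mitochondrial DNA were not analysed here.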

Additional observations from a re-analysis of the deposited data

How the results depend on the processing

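Of the 40 tested members that the naming rule gave, 6 of the 16 that passed in TBX3iso1 (ATP5G3, NDUFA4, NDUFA4L2, NDUFA9, NDUFAF4 and NDUFB3), 8 of the 18 in TBX3iso2 (ATP5G3, COX6B2, NDUFA4L2, NDUFAF4, NDUFAF6, NDUFB3, NDUFS1 and SDHA) and 2 of the 6 between the isoforms (COX6B2 and NDUFA4L2) passed in each of the 17 alternatives that kept them, and none gave a call of reversed sign. Of those that did not pass, 11 of 24 in TBX3iso1, 11 of 22 in TBX3iso2 and 13 of 34 between the isoforms passed in at least 1 alternative. Of 25 further genes the text names, COX5B and UQCRC2 among them, 11 of the 17 that passed in TBX3iso1, 13 of the 18 in TBX3iso2 and 1 of the 7 between the isoforms (NDRG1) did so in every alternative. Counts over the 97 genes moved more. The share of all genes called was not computed for the alternatives, so these shifts cannot be read as particular to the set. Without a filter on low values, 8 were higher in TBX3iso1 and 13 in TBX3iso2. Testing only genes that averaged 2 RPKM or more left 4 lower in TBX3iso1 and 3 in TBX3iso2. Adding 1 RPKM before the log left 5 past both thresholds in TBX3iso2. Quantile normalization gave 11 lower in TBX3iso1, 8 lower in TBX3iso2, and 7 higher and 5 lower between the isoforms. The length correction, chosen after seeing the data as was the GC correction, gave 28 higher and 12 lower in TBX3iso1, 9 lower in TBX3iso2, and 10 higher and 9 lower between the isoforms. The causes were not tested.

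With a replicate block, 32 genes of the set were higher in TBX3iso1, 36 in TBX3iso2, and 9 higher and 5 lower between the isoforms. No share over all genes was computed for that fit either. The numbers are not said to mark a shared batch, and with 2 per line they were taken as names, although library 2 minus library 1 correlated across 12805 genes at 0.22 between EV and TBX3iso1, 0.114 between EV and TBX3iso2 and 0.499 between the isoform lines. Genes are not independent replicates.

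Leaving out 1 library at a time gave 6 to 29 higher, 1 to 8 lower and 5 to 13 past both thresholds in TBX3iso1, 6 to 31, 3 to 8 and 7 to 12 in TBX3iso2, and 0 to 4, 2 to 7 and 2 to 5 between the isoforms. The medians ranged from -0.01 to 0.23, from 0.03 to 0.26 and from -0.09 to 0.16. A lone library was then assumed to vary like the other lines. The spread is estimated from fewer libraries in such a fit, so a call can be lost at an unchanged difference. NDUFS6 between the isoforms, for example, stayed at -0.63 without either EV library and lost its call. Depth per gene is known only approximately, and the RPKM values give no counting error.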

Other observations

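Genes that respond to hypoxia-inducible factors, a class to which NDUFA4L2 belongs, were looked at as a list of 12. In TBX3iso1 against EV, 5 rose and 2 fell (median log2 difference 0.16), where 19% of all genes tested rose and 25.7% fell. In TBX3iso2 against EV, 2 rose and 6 fell (median -0.28), where 22.9% rose and 22.7% fell. Between the lines, 8 of 12 were lower in TBX3iso2 than in TBX3iso1 and 0 were higher (median -0.42), where 5.97% of all genes tested were lower and 8.79% higher. NDRG1, a stress-induced gene, was at 90.5 and 86.3 RPKM in EV, at 83.3 and 82.9 in TBX3iso1 and at 36.8 and 37.8 in TBX3iso2, and fell in TBX3iso2 by 1.24 (limma adjusted p = 1.9e-05). VEGFA, an angiogenic factor, was at 99.2 and 97.1 RPKM in EV, at 81.6 and 74.4 in TBX3iso1 and at 59.8 and 57.1 in TBX3iso2. PDK1, which restrains pyruvate dehydrogenase, rose in both lines (0.80 and 0.54). NDUFA4L2 fell in TBX3iso1, where 5 of these 12 genes rose and 2 fell, and in TBX3iso2, where 2 rose and 6 fell. Whether these differences are linked was not tested. HIF1A itself was at 452 and 463 RPKM in EV, at 272 and 239 in TBX3iso1 and at 363 and 281 in TBX3iso2.

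Genes that handle the gradient or its product also differed. UCP2, an inner membrane carrier of the uncoupling protein family, was at 12.7 and 11.8 RPKM in EV, at 4.75 and 4.18 in TBX3iso1 and at 6.41 and 6.38 in TBX3iso2, and fell by 1.44 and 0.93. Of the 4 tested genes of that list, 0 rose and 2 fell in either line (UCP2 and SLC25A27, the latter not in TBX3iso1 without library 2 of EV, at -0.52, or library 2 of TBX3iso1, at -0.50), and ATPIF1, the ATP synthase inhibitor, had 0.04 and 0.07. Of 10 carriers and pores, 2 rose and 2 fell in TBX3iso1 and 4 rose and 1 fell in TBX3iso2. Of all genes tested, 19% rose and 25.7% fell in TBX3iso1, and 22.9% rose and 22.7% fell in TBX3iso2. VDAC3, a channel of the outer membrane, was at 28.9 and 31.2 RPKM in EV, at 67.1 and 76.8 in TBX3iso1 and at 50.6 and 55.1 in TBX3iso2, and rose by 1.26 and 0.81.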
